A study of Mus musculus with 30 samples.

Results

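*Areg*, *Ereg*, *Btc*, *Hbegf* and *Tgfa*, 5 ligands of the epidermal growth factor (EGF) family, and *Egfr*, *Erbb2* and *Erbb3*, 3 of its receptors, were followed in the *muscularis externa* (*ME*) of the mouse small bowel during post-operative ileus. They are 8 of the 26179 genes in the count tables of glial *RiboTag* mRNA and of the 24601 genes in the table of total *ME* RNA. The genes belong to the family by function, but they were chosen by measured values, since their log2 fold changes in *RiboTag* at 3 h after surgery were known. Values of that comparison are therefore given for the 8 genes as a description, with no test. In *RiboTag* libraries of that time point, *Hbegf* was 97.2-fold, *Btc* 24-fold and *Areg* at least 49.0-fold higher than in naïve mice. In total *ME* RNA, where the test applied, *Ereg*, *Btc*, *Hbegf* and *Egfr* rose at 3 h, and *Areg*, nearly absent from naïve tissue, was higher in all libraries. Of these, *Ereg* and *Hbegf* also passed the test at 24 h.

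Ligands of this family are made as membrane proteins and are released by metalloproteases of the ADAM family, in a step called shedding. Released ligands bind receptor tyrosine kinases, which pair with each other and signal through the RAS and ERK cascade, PI3 kinase and STAT3. *Areg*, *Tgfa* and EGF itself bind the EGF receptor, *Hbegf*, *Btc* and *Ereg* also bind ERBB4, ERBB2 has no known ligand and acts as a partner, and ERBB3 binds neuregulins and has a weak kinase. In Schwann cells and other glia of the neural crest, the pair of ERBB2 and ERBB3 relays neuregulin signals for survival and migration.

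In *RiboTag* mice, Cre activity switches on a tagged form of the ribosomal protein RPL22, and mRNA bound to tagged ribosomes can be precipitated from whole tissue. By the labels, all *RiboTag* libraries came from mice of the line B6 Tg(Sox10-icre/ERT2)388Wdr/J that had been crossed with B6N.129 Rpl22tm1.1Psam/J, in which tamoxifen-inducible Cre is driven by the promoter of *Sox10*, a transcription factor of glia. Mice were naïve (3 libraries in the tables, 4 in the labels) or were studied after intestinal manipulation through a laparotomy, with 4 libraries each at 3 h (IM3h), 24 h (IM24h) and 72 h (IM72h). Total *ME* RNA was sequenced from 3 naïve, 3 IM3h, 4 IM24h and 4 IM72h libraries. The labels give the *Sox10* cross for *ME* libraries of IM24h and IM72h, but for naïve and IM3h *ME* libraries a cross of the same *Rpl22* line with B6.Cg-Tg73.12Mvs/J(Gfap-cre), whereas the study's methods describe the *Sox10* line alone, in adult male mice. Every group carried the tagged *Rpl22* allele. No library analysed here came from a laparotomy without manipulation. In *ME* RNA the line and the time point cannot be told apart at IM24h and IM72h against naïve mice, and the numbers in the library names split *ME* RNA in the same way, into 1 range for naïve and IM3h and 1 each for IM24h and IM72h. The study counts its replicates as mice, but the labels tie no library to a mouse, and p-values measure the spread between these libraries.

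Libraries held 3010306 to 12866062 counts. The entry AY036118, which is related to rRNA, took 2.02% to 14.0% of the counts in naïve and IM3h *RiboTag* libraries, 22.2% to 59.2% at IM24h and 58% to 80.1% at IM72h, which left 663808 to 1619377 counts for other entries at IM72h. *RiboTag* libraries of IM72h stood apart in another way: *Sox10* was at 0 to 11.7 CPM there against 486 to 1049 CPM in naïve *RiboTag* libraries, while *S100b*, another glial marker, was at 99.8 to 1056 CPM against 434 to 704 CPM. CPM are counts per 1e6 on TMM-scaled library totals. In 3′ end libraries a transcript gives about 1 tag whatever its length, so CPM of different genes were set side by side without division by length. In bulk RNA, fewer cells of a type and less RNA per cell cannot be told apart. Below, a gene is said to rise or fall at a Benjamini-Hochberg adjusted p under 0.05 over all genes tested in that comparison (edgeR quasi-likelihood test, two-sided). Where no library of the other group reached the minimum of the filter on low counts, a gene passed it through 1 group alone, and its difference is bound to that filter. Such a gene is given as a description, with no test, and is set aside from the counts of its list.

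Before surgery the glial fraction and the whole tissue differed in which member was most abundant. Among the 3 receptors, *Erbb3* made up 75.2% to 83.1% of the counts in naïve *RiboTag* libraries and 18.4% to 27.5% in naïve *ME* libraries, where *Egfr* made up 63.8% to 73.0%. The level of *Erbb3* was 98.2, 65.3 and 73.2 CPM in the 3 naïve *RiboTag* libraries and 11.4, 11.8 and 7.92 CPM in the 3 naïve *ME* libraries. All *RiboTag* libraries were above all *ME* libraries, and the difference was 3.26 on the log2 scale (SE 0.25, edgeR adjusted p = 1.13e-04), or 9.56-fold. *Hbegf*, a heparin-binding ligand, had 16.8, 27.5 and 17.6 CPM in naïve *RiboTag* and 5.17, 1.45 and 6.84 CPM in naïve *ME* libraries, again without overlap, a log2 difference of 2.48 (SE 0.49, edgeR adjusted p = 0.00693).

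These were 2 of the 6 members that passed the filter on low counts in this comparison, where 13.5% of the 14757 genes tested were higher in *RiboTag*. *Erbb2* (1.42, edgeR adjusted p = 0.0688), *Egfr* (−0.87, 0.0686), *Btc* (−1.21, 0.114) and *Ereg* (−1.73, 0.249) did not pass the adjustment, although libraries of the fractions did not overlap for any of these 4 genes. Of all genes tested, 23.1% were higher and 24.8% lower in *RiboTag* without overlap, and 12.7% were lower by the test. *Areg* had 0 counts in all 3 naïve *RiboTag* libraries, which allows up to 3 counts per library, or 0.342 to 0.381 CPM, by counting error alone, and 0.120, 1.04 and 0.480 CPM in naïve *ME* libraries. *Tgfa* was below 4 CPM in all 6 naïve libraries. Each fraction has its own tables, and the labels give separate Cre lines, so fraction, line and table cannot be told apart. All 6 glial markers of a list fixed with the members, among them *Sox10*, *S100b* and *Gfap*, were listed in both fractions. Their summed level was 1498 to 1842 CPM in naïve *RiboTag* and 104 to 132 CPM in naïve *ME* libraries. The sums of 5 smooth muscle markers were 4398 to 6670 and 20816 to 21646 CPM, so the pulldown did not hold glial RNA alone.

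**Figure D1:**
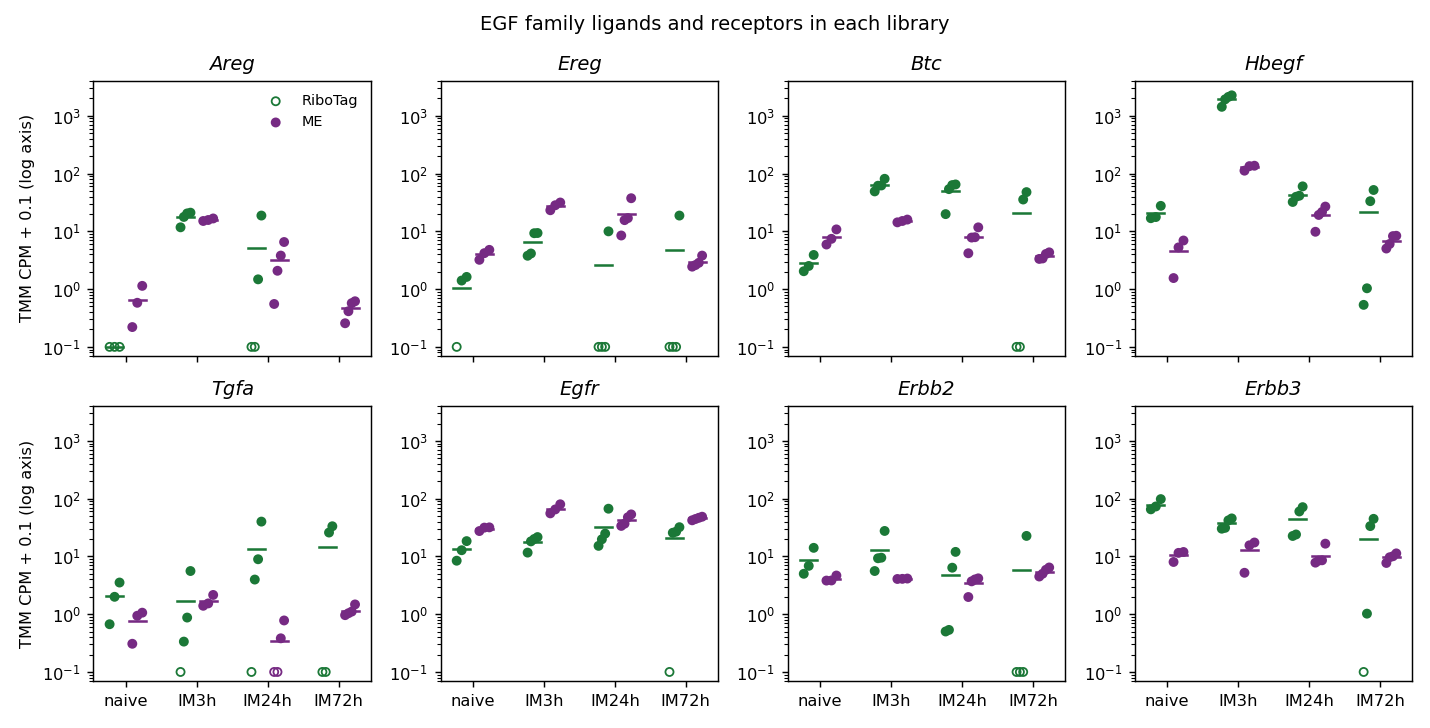
Level of each of the 8 genes in every library, as TMM-scaled CPM plus 0.1 on a log axis, for *RiboTag* (green) and total *ME* RNA (purple) in naïve mice and at IM3h, IM24h and IM72h. Each point is 1 library, open points are libraries at 0 and short lines are group means. *Hbegf* reached 1431 to 2262 CPM in the 4 *RiboTag* libraries of IM3h, and *Areg* is missing from the *RiboTag* table of IM72h.

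At IM3h *Hbegf* was the most abundant member in the glial fraction by far. Its level was 1431, 1926, 2126 and 2262 CPM in the 4 *RiboTag* libraries of IM3h (mean 1936 ± 364, SD, n = 4) and 20.6 ± 5.97 CPM (SD, n = 3) in naïve mice. In counts, naïve libraries held 132 to 241 tags of *Hbegf* and IM3h libraries 18059 to 24093. No naïve library came near an IM3h library, and the log2 difference was 6.60 (SE 0.36).

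*Areg* encodes amphiregulin, a ligand of the EGF receptor with roles in tissue repair and type 2 immunity. It went from 0 counts in all 3 naïve *RiboTag* libraries to 267, 210, 150 and 124 counts in the 4 libraries of IM3h, or 20.9, 20.3, 17.7 and 11.6 CPM. Against the floor of 3 counts per library, this was at least 49.0-fold higher. *Btc* encodes betacellulin, which binds the EGF receptor and ERBB4. Its level was 2.42, 1.94 and 3.80 CPM in naïve *RiboTag* libraries and 49.0, 61.5, 62.1 and 81.1 CPM at IM3h, a log2 difference of 4.59 (SE 0.37). All IM3h libraries lay above all naïve libraries for both ligands.

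*Ereg*, which encodes epiregulin, was low in *RiboTag* libraries, with 1.53, 0 and 1.31 CPM in naïve mice and 9.26, 3.68, 9.18 and 4.04 CPM at IM3h. The groups did not overlap, and the log2 difference was 2.82 (SE 1.09). *Tgfa*, which encodes transforming growth factor alpha, had 3.43, 0.571 and 1.90 CPM in naïve and 5.49, 0.775, 0.235 and 0 CPM in IM3h libraries. These groups overlapped, and the log2 difference of −0.25 was smaller than its SE of 1.56.

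Of the receptors, *Erbb3* was lower in *RiboTag* libraries of IM3h. Its level was 45.4, 30.1, 42.0 and 31.2 CPM, below each of the 3 naïve *RiboTag* libraries, with a log2 difference of −1.04 (SE 0.27). *Sox10* itself fell by 0.97 on the log2 scale in the same comparison (SE 0.29, edgeR adjusted p = 0.0471), from 703 to 346 CPM, while *Gfap* rose by 2.26 (SE 0.27, edgeR adjusted p = 3.14e-04). The call of *Sox10* was lost without any 1 of 6 of the 7 libraries (adjusted p = 0.0573 to 0.272). Of the other 4 glial markers, *S100b* (0.38, adjusted p = 0.723) and 2 more did not pass the test, and *Fabp7* (−4.74) passed the filter through naïve libraries alone. Whether the lower level of *Erbb3* and that of *Sox10* are linked was not tested. *Egfr* was at 13.1 ± 5.0 CPM (SD, n = 3) in naïve mice and 17.8 ± 4.39 CPM (SD, n = 4) at IM3h, *Erbb2* at 8.55 ± 4.80 and 12.9 ± 9.90 CPM, and for both the libraries of the groups overlapped. *Erbb2* was at 27.5 CPM in IM3h library 4 and at 5.49 to 9.42 CPM in the other 3, and without that library its log2 difference went from 0.64 to −0.050.

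In all, 4 of the 8 genes were more than 2-fold higher and 1 was more than 2-fold lower in *RiboTag* libraries of IM3h, beside 18.3% and 19.3% of the 16053 genes tested. Without overlap of the libraries, 4 were higher and 1 lower, beside 15.3% and 14.3% of all genes. Nothing is read from these counts, because the genes were chosen with this comparison known. The study's own acute gliosis list, which was made in part on the same libraries, holds *Areg*, *Btc* and *Hbegf*. The median log2 difference of the 8 genes was 1.73, the same with *Areg* at its bound, and that of all genes −0.04.

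**Figure D2:**
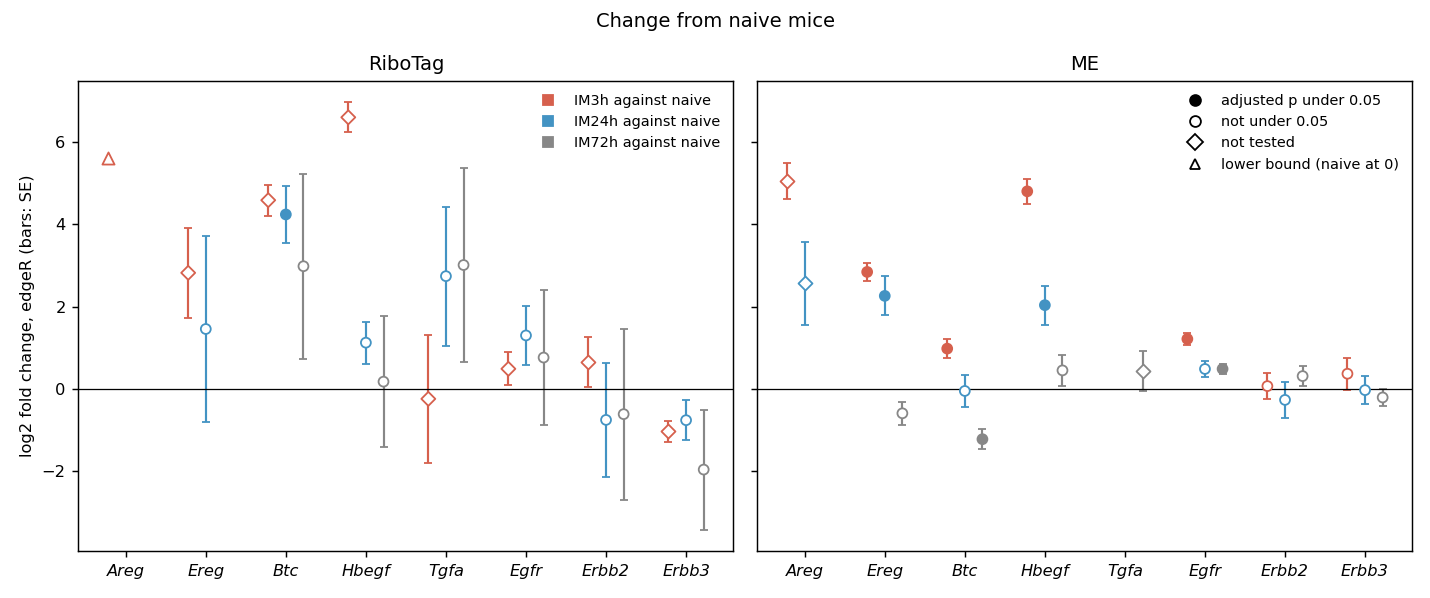
log2 fold change of the 8 genes against naïve mice of the same fraction at IM3h (red), IM24h (blue) and IM72h (grey), with bars of 1 standard error, for *RiboTag* (left) and *ME* RNA (right). Filled circles have an edgeR adjusted p under 0.05, diamonds were not tested, the triangle is the lower bound of *Areg*, and genes under the filter on low counts have no point. *Areg*, a diamond, and *Hbegf* of the *ME* at IM3h sit at 5.06 and 4.80, and *Erbb2* and *Erbb3* of the *ME* lie within 0.37 of 0 at all 3 time points.

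The promoters of *Areg* and *Btc* are shown because these genes, with *Ereg*, lie in 1 region of chromosome 5. All 3 were higher in *RiboTag* libraries of IM3h. In mm10, *Ereg* spans 91074622 to 91093646 (plus strand), *Areg* 91139599 to 91148432 (plus strand) and *Btc* 91357261 to 91402994 (minus strand). The RefSeq promoter table (GRCm38.p6, 250 bases before to 50 after the start) held 5 of the 8 genes, which were *Areg*, *Btc*, *Tgfa*, *Egfr* and *Erbb2*. Capitals mark TGACGTCA, the full cAMP response element, and TGACG, its short form, searched on both strands. The windows are chr5:91139349-91139648 (plus strand) for *Areg* and chr5:91402945-91403244 (minus strand) for *Btc*, both written 5′ to 3′.
Areg: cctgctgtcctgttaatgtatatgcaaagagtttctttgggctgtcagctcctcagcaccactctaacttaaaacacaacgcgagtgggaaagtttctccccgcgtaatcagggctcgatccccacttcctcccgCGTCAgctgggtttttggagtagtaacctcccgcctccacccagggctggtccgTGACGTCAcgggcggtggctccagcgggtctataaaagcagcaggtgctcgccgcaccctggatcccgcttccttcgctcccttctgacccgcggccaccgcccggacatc
Btc: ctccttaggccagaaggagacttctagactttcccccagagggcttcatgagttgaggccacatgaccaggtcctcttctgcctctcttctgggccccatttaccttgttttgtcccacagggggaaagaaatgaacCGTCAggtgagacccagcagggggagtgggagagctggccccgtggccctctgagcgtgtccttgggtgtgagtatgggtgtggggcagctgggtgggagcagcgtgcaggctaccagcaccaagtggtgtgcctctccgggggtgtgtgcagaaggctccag
The *Areg* window held the full element once, starting 61 bases before the transcription start, where the 2 short forms at −61 and −58 are parts of it, and a further short form at −115. Among all 32851 promoters of this length, 1.79% held TGACGTCA and 20.8% held TGACG. *Btc* had 1 short form at −113 and *Erbb2* 1 at −171, and none was found in *Tgfa* or *Egfr*. The AP-1 element TGAGTCA, searched on both strands, was in none of the 5 windows and in 5.2% of all promoters.

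Whole *ME* RNA showed which of these ligands changed in the tissue at IM3h. *Hbegf* was at 5.17, 1.45 and 6.84 CPM in naïve libraries and at 112, 137 and 134 CPM at IM3h, a rise of 4.80 on the log2 scale (SE 0.30, edgeR adjusted p = 2.51e-06) or 27.9-fold. *Areg* was at 0.120, 1.04 and 0.480 CPM in naïve and 15.6, 15.01 and 16.6 CPM in IM3h libraries, a log2 difference of 5.06 (SE 0.44). It passed the filter through its IM3h libraries alone, and this value is a description. For both ligands the 3 IM3h libraries lay close together and far above the naïve ones.

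*Ereg* and the receptor gene *Egfr* rose in the tissue as well. *Ereg* rose from 4.09, 3.11 and 4.68 CPM to 28.2, 23.1 and 31.5 CPM, or 7.17-fold (log2 2.84, SE 0.22, edgeR adjusted p = 8.71e-06). *Egfr* rose from 31.8, 27.4 and 31.4 CPM to 65.1, 79.8 and 55.6 CPM, or 2.31-fold (log2 1.21, SE 0.15, edgeR adjusted p = 1.76e-04), and was the most abundant of the 3 receptors in both groups. *Btc* rose from 10.7, 5.81 and 7.32 CPM to 15.9, 15.01 and 14.2 CPM (log2 0.98, SE 0.23, edgeR adjusted p = 0.0100). Its call was the least firm, since the adjusted p was 0.0706 with scaling by the library total, 0.106 with scaling by 3 reference genes, 0.0529 with all groups in 1 fit and 0.0556 without naïve library 3.

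*Erbb2* stayed at 3.72 to 4.57 CPM in naïve and 3.97 to 4.04 CPM in IM3h *ME* libraries (log2 0.06, SE 0.31, edgeR adjusted p = 0.894). *Erbb3* was at 15.5, 17.3 and 5.11 CPM at IM3h against 7.92 to 11.8 CPM in naïve mice, and the groups overlapped (log2 0.37, SE 0.38, edgeR adjusted p = 0.499). Without IM3h library 3, which had the lowest level, the log2 fold change of *Erbb3* was 0.74 and its edgeR adjusted p was 0.0495. *Tgfa* had 9 to 15 counts in IM3h and 1 to 8 in naïve libraries and was under the filter.

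With *Areg* set aside, 4 of the other 6 members that passed the filter rose and 0 fell in the *ME* at IM3h, where 19.3% of the 15333 genes tested rose and 13.4% fell (18.7% and 13% with all genes of this kind set aside). The same 4 were higher without overlap of the libraries, as were 25.3% of all genes. Both groups belong to 1 Cre line by the labels and to 1 range of library numbers. Markers of other cell types moved in the same comparison. Of the neutrophil genes *S100a8*, *S100a9*, *Retnlg*, *Cxcr2* and *Csf3r*, 2 passed the filter, through IM3h libraries alone, and the summed level of all 5 was 0.831 to 0.842 CPM in naïve and 20.8 to 29.4 CPM in IM3h libraries. Of the mesothelial genes *Msln*, *Upk3b*, *Lrrn4* and *Krt19*, 3 fell and 0 rose, *Wt1* passed the filter through naïve libraries alone, and the sum of all 5 went from 125 to 152 CPM to 14.9 to 59.98 CPM. Of 6 epithelial markers 0 passed the test and 5 were over 2-fold higher, with a sum of 119 to 328 CPM in naïve and 190 to 1123 CPM in IM3h libraries. All 3 markers of interstitial cells of Cajal fell (229 to 232 CPM against 334 to 346 CPM), as did 2 of 4 fibroblast markers, and of 5 macrophage markers 1 rose and 2 fell. Of 6 glial markers 2 rose, *Sox10* and *Gfap*, and 2 fell, *S100b* among them. In *RiboTag* libraries of IM3h the mesothelial sum was likewise lower, at 10.9 to 73.5 CPM against 111 to 288 CPM, and 4 of the 5 genes fell, while the neutrophil sum was 3.45 to 10.8 CPM against 1.26 to 3.18 CPM. Of 5 smooth muscle markers 3 fell there as well, with a sum of 1712 to 4016 CPM against 4398 to 6670 CPM. The part of these cells in the changes of the ligands was not tested.

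**Figure D3:**
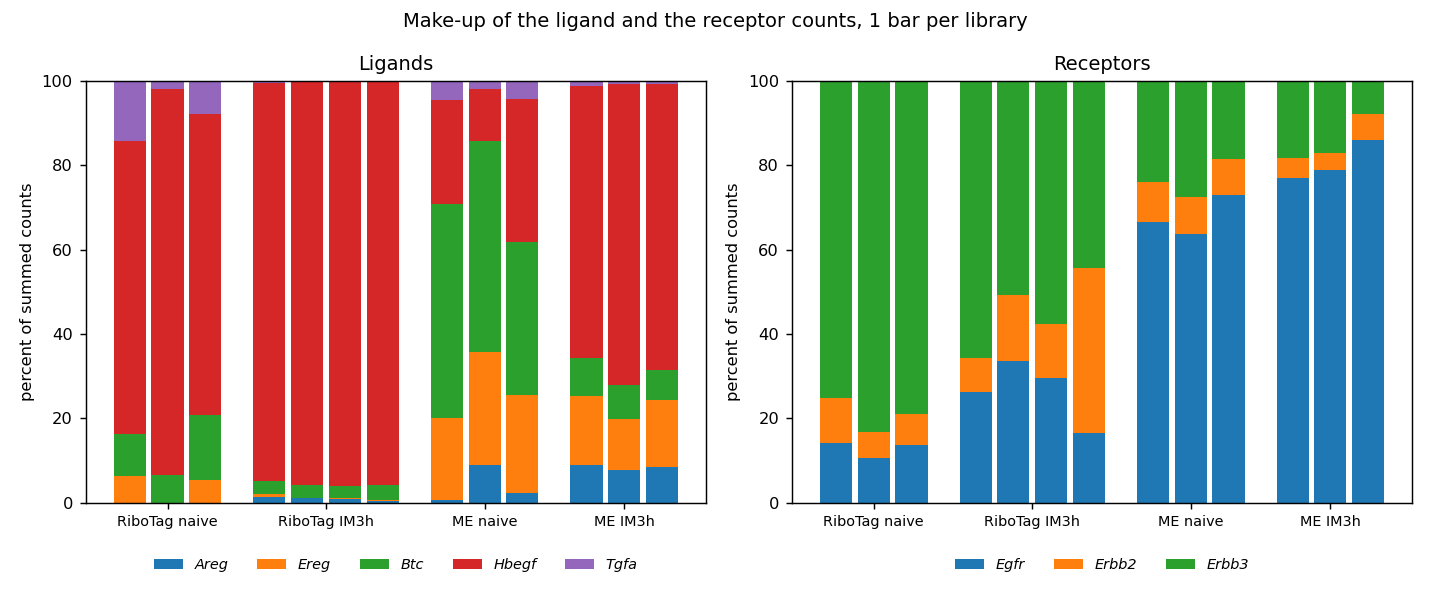
Share of each ligand among the summed counts of the 5 ligands (left) and of each receptor among those of the 3 receptors (right), in percent, with 1 bar per library of naïve mice and IM3h. *Hbegf* fills 94.4% to 96.0% of the ligand counts in *RiboTag* libraries of IM3h, and *Egfr* 77.0% to 85.9% of the receptor counts in *ME* libraries of IM3h.

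Shares of the ligand counts were compared between fractions and times as a description. In naïve *ME* libraries *Btc* was the largest share of the ligand counts, with 36.3% to 50.9%, and *Hbegf* took 12.5% to 33.9%. At IM3h *Hbegf* took 64.5% to 71.5% of the ligand counts of the *ME*, *Ereg* 12.1% to 16.2%, *Areg* 7.85% to 8.98% and *Btc* 7.17% to 9.13%. In *RiboTag* libraries *Hbegf* led before surgery, with 69.5% to 91.6%, and took 94.4% to 96.0% at IM3h. The ligand counts behind these shares were 56 to 175 per naïve and 1241 to 1324 per IM3h *ME* library, and 190 to 263 and 18817 to 25124 in *RiboTag* libraries. *Erbb3* took 44.4% to 65.8% of the receptor counts in *RiboTag* libraries of IM3h, less than in any naïve *RiboTag* library, and *Egfr* 16.4% to 33.7%, more than in any of them.

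At IM24h *Ereg* and *Hbegf* were the members that rose in the whole tissue. *Ereg* was at 16.9, 15.5, 37.3 and 8.38 CPM, above all naïve libraries, with a log2 fold change of 2.26 (SE 0.47, edgeR adjusted p = 0.00593). *Hbegf* was at 19.1, 21.5, 26.7 and 9.73 CPM, also above all naïve libraries, with 2.03 (SE 0.47, edgeR adjusted p = 0.00963, and 0.0623 with scaling by 3 reference genes). IM24h library 4 was the lowest for both ligands, and library 3 the highest.

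*Areg* was at 1.98, 3.71, 6.44 and 0.453 CPM at IM24h in the *ME*, which overlapped naïve mice through library 4 (log2 2.56, SE 1.01, with no test, since it passed the filter through IM24h libraries alone). *Btc* was back at 7.80 ± 3.08 CPM (SD, n = 4) against 7.95 ± 2.51 CPM (SD, n = 3) in naïve mice. *Egfr* (0.48, edgeR adjusted p = 0.0874), *Erbb2* (−0.27, 0.684) and *Erbb3* (−0.03, 0.950) did not pass the test. Of the other 6 members that passed the filter, 2 rose and 0 fell at IM24h, where 15.6% of the 16328 genes tested rose and 13.4% fell. Libraries of *Ereg*, *Hbegf* and *Egfr* lay above naïve mice without overlap, as for 20.2% of all genes. In the same libraries macrophage markers summed to 274 to 372 CPM against 119 to 125 CPM in naïve mice, neutrophil markers to 43.7 to 211 CPM and smooth muscle markers to 2849 to 9931 CPM against 20816 to 21646 CPM. Of the glial markers *Sox10* rose by 1.64 (SE 0.34, edgeR adjusted p = 0.00514) and *S100b* fell by 2.19 (SE 0.34, 0.00125), 2 of 6 epithelial and 2 of 5 neuronal markers fell, and 2 of 4 endothelial markers rose. Their part in these changes was not tested.

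At IM72h no ligand of the *ME* passed the test as higher than in naïve mice. *Btc* was at 3.96, 3.29, 4.23 and 3.23 CPM, below the 3 naïve libraries, and fell by 1.23 on the log2 scale (SE 0.25, edgeR adjusted p = 0.00154, and 0.0631 with scaling by the library total). *Hbegf* was at 8.17, 4.94, 5.95 and 8.28 CPM and overlapped naïve mice (log2 0.45, SE 0.38, edgeR adjusted p = 0.329), as did *Ereg* at 2.35 to 3.70 CPM (−0.60, adjusted p = 0.0921). *Areg* was at 0.157 to 0.516 CPM and under the filter.

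*Egfr* was at 46.5, 42.1, 48.6 and 44.4 CPM at IM72h, above all naïve libraries, and rose by 0.48 (SE 0.11, edgeR adjusted p = 0.00400), but scaling by 3 reference genes turned its change to −0.13. *Erbb2* (0.31, adjusted p = 0.291), *Erbb3* (−0.21, 0.402) did not pass the test, and *Tgfa* (0.43) passed the filter through IM72h libraries alone. So 1 of the other 6 members tested rose and 1 fell at IM72h, where 29.3% of the 16592 genes tested rose and 28.3% fell. Without overlap, 30% of all genes were higher, like *Egfr*, and 28.7% lower, like *Btc*. In the same libraries all 5 macrophage markers rose, with a sum of 697 to 948 CPM against 119 to 125 CPM in naïve mice, and the 5 neutrophil markers, which passed the filter through IM72h libraries alone, summed to 20.3 to 57.4 CPM against 0.831 to 0.842 CPM. Of 5 fibroblast markers 3 rose and 1 fell (2222 to 2548 CPM against 881 to 899 CPM), 3 of 4 endothelial markers and 2 of 6 epithelial markers rose, and all 3 markers of interstitial cells of Cajal fell (156 to 178 CPM against 334 to 346 CPM). Of 6 glial markers 3 rose, among them *Sox10* (2.37), and 2 fell, among them *S100b* (−0.80). Their part in the changes of *Btc* and *Egfr* was not tested. The 3 comparisons of *ME* RNA with naïve mice share the same 3 naïve libraries.

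Within the *Sox10* line, IM72h and IM24h *ME* libraries could be compared directly, though they belong to separate ranges of library numbers. *Ereg* fell by 2.87 on the log2 scale (SE 0.42, edgeR adjusted p = 4.20e-04), *Hbegf* by 1.58 (SE 0.31, 0.00224) and *Btc* by 1.18 (SE 0.34, 0.0178), and for each the libraries did not overlap. The adjusted p of *Btc* was 0.0602 without IM72h library 2 and 0.0509 without library 4. These were 3 of the 6 members tested, where 19.9% of the 16281 genes tested fell and 18.6% rose, and 18.5% were lower without overlap. In the same comparison 4 of 6 epithelial markers rose, from a sum of 69.2 to 153 CPM at IM24h to 281 to 612 CPM, as did 3 of 5 macrophage, 3 of 5 fibroblast and 3 of 5 smooth muscle markers, the last from 2849 to 9931 CPM to 11402 to 20278 CPM. Neutrophil markers fell in 3 of 5 cases (43.7 to 211 CPM to 20.3 to 57.4 CPM), and the 3 markers of interstitial cells of Cajal fell, while 3 of 6 glial markers rose. Their part in the fall of the ligands was not tested. The 3 receptors did not pass the test, with log2 values of −0.0048 for *Egfr*, 0.58 for *Erbb2* and −0.19 for *Erbb3*. By level, the order of the *ME* groups was IM3h, IM24h, IM72h and naïve for *Hbegf*, with overlap between the last 2 only, and IM3h, IM24h, naïve and IM72h for *Ereg*, where IM3h and IM24h overlapped and naïve and IM72h overlapped.

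In the glial fraction *Btc* was the member that passed the test at IM24h. The test used the 3 naïve libraries of the comparison known when the members were chosen, so it is not independent of that choice. *Btc* was at 19.8, 63.1, 64.7 and 53.7 CPM, above the naïve range of 1.94 to 3.80 CPM. Its log2 fold change was 4.24 (SE 0.70, edgeR adjusted p = 0.0206), or 18.9-fold. It was 1 of 7 members tested, where 0.366% of the 15304 genes tested rose and 0.131% fell, and 6.97% were higher without overlap. The adjusted p was 0.0351 without libraries 2 and 3, in which AY036118 took 59.2% and 58.1% of the counts, an alternative chosen after seeing the data, but 0.231 with scaling by the library total, 0.263 with scaling by 3 reference genes and 0.300 with all groups in 1 fit. It was above the threshold, at 0.0960 to 0.180, without library 2 or 4 of IM24h or any 1 of the naïve libraries. Of 5 smooth muscle markers 3 fell in the same comparison, and their sum was 797 to 2137 CPM against 4398 to 6670 CPM in naïve mice. Of 6 glial markers 0 passed the test, and their sum was 741 to 854 CPM against 1498 to 1842 CPM. Sums of mesothelial markers and of markers of interstitial cells of Cajal were also below all naïve libraries, and that of neutrophil markers was above them. Their part in the change of *Btc* was not tested.

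*Hbegf* was at 39.5, 32.2, 41.3 and 59.97 CPM in *RiboTag* libraries of IM24h, all above the naïve libraries of 16.8 to 27.5 CPM and all far below IM3h, and did not pass the test against naïve mice (log2 1.12, SE 0.51, edgeR adjusted p = 0.370). Scaling by 3 reference genes turned this value to −0.42. *Areg* had counts in 2 of 4 libraries, with 18.7 CPM in library 4, 1.38 CPM in library 1 and 0 in the others, and was under the filter. *Erbb3* was at 71.2, 22.5, 23.9 and 59.97 CPM, and libraries 2 and 3 were those in which *Sox10* was lowest, at 37.4 and 52.6 CPM against 417 and 260 CPM. *Egfr* was at 15.1, 19.7, 66.9 and 24.7 CPM, and *Tgfa* ranged from 0 to 40.0 CPM with its highest value in the same library 3. None of *Erbb3* (−0.76, adjusted p = 0.582), *Egfr* (1.30, 0.491), *Tgfa* (2.74, 0.560), *Erbb2* (−0.76, 0.885) and *Ereg* (1.45, 0.859) passed the test.

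At IM72h no member passed the test in *RiboTag* libraries. Of 6 members tested 0 passed, with 0 at an unadjusted p under 0.05 and 0 by DESeq2, where 1.05% of the 13572 genes tested rose and 15.1% fell. *Btc* was at 35.5, 0, 0 and 47.7 CPM and *Hbegf* at 0.933, 0.434, 33.2 and 51.9 CPM, so libraries of the group differed among themselves by more than the groups did. *Erbb3* was at 0, 33.4, 0.922 and 44.6 CPM, with all 4 libraries below naïve mice of 65.3 to 98.2 CPM (log2 −1.97, SE 1.46, edgeR adjusted p = 0.575), as for 28.1% of all genes. The table lists only entries with at least 10 counts in all, and *Areg* is not listed. The 3 *RiboTag* comparisons share the same 3 naïve libraries, whose values were part of what was known when the members were chosen.

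**Figure D4:**
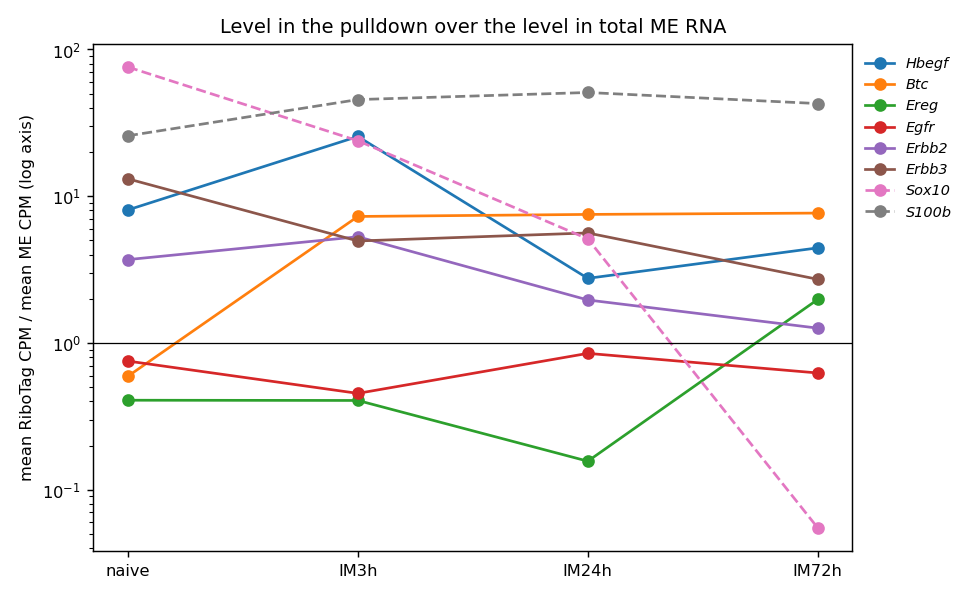
Mean level in *RiboTag* libraries divided by the mean level in *ME* libraries of the same time point, on a log axis, for 6 members (solid lines) and the glial genes *Sox10* and *S100b* (dashed lines). CPM were scaled over genes listed in both fractions, without AY036118. *Btc* went from 0.593 in naïve mice to 7.28 at IM3h, *Hbegf* from 8.07 to 25.5, and *Sox10* reached 0.0550 at IM72h.

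The ratio of the fractions at each time point is given as a description. In naïve mice and at IM3h the labels give the fractions separate Cre lines, so fraction, line and table cannot be told apart there. The line and the number range of *ME* libraries change from IM3h to IM24h, so ratios of different times also mix these. On the scale of genes listed in both fractions, *Btc* moved from 0.593 in naïve mice, where libraries of the fractions overlapped on this scale, to 7.28 at IM3h and 7.52 at IM24h, with all *RiboTag* libraries above all *ME* libraries at both times. *Hbegf* was above 1 throughout, at 8.07, 25.5, 2.76 and 4.45 in order of time, and its libraries overlapped only at IM72h. *Ereg* was below 1 in naïve mice (0.407) and at IM3h (0.406), without overlap, and at IM24h (0.157), with overlap. It was at 1.98 at IM72h, with overlap. Of the 4 *RiboTag* libraries, library 4 alone held its counts at IM24h and library 2 alone at IM72h. *Areg* was at 1.92 at IM3h.

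*Erbb3* was 13.1-fold as abundant in the pulldown as in the tissue in naïve mice, 4.95-fold at IM3h and 5.62-fold at IM24h. At IM72h it was at 2.72, with overlap. *Egfr* was at or below 0.850 at every time point, and its libraries overlapped on this scale at all times but IM3h (0.454). Scaling by *Actb*, *Hsp90ab1* and *Rplp1* gave lower ratios, such as 5.41 for *Btc* and 19.2 for *Hbegf* at IM3h. At IM24h it took *Btc* from 7.52 to 3.57 and *Egfr* from 0.850 to 0.375. It left *Hbegf* and *Erbb3* above 1 and *Egfr* below 1 at all times. Over the same times the ratio of *Sox10* went from 75.9 to 23.9, 5.12 and 0.0550, whereas that of *S100b* was 25.8 to 50.9. A difference between the fractions in the response to surgery was not tested, since the members' *RiboTag* values at IM3h carry no test.

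Around these ligands and receptors, lists of the other genes of the pathway were counted in the same fits. At IM3h their counts stand beside 19.3% of all genes that rose and 13.4% that fell in the *ME*, and 8.86% that rose and 4.44% that fell in *RiboTag* (8.4% and 4.38% with genes that passed the filter through 1 group alone set aside). Of the other ligands, *Egf*, *Epgn* and the neuregulins *Nrg1*, *Nrg2*, *Nrg3* and *Nrg4*, 4 could be tested at IM3h in the *ME* and 5 in *RiboTag*, and 0 passed in either direction. *Nrg1*, a ligand of ERBB3, had 1.92 to 3.48 CPM in naïve and 4.41 to 6.51 CPM in IM24h *ME* libraries and did not pass the test (log2 1.04, edgeR adjusted p = 0.0933). At IM72h *Nrg1* (−1.18, edgeR adjusted p = 0.0216), *Nrg3* (−1.43, 0.0249) and *Nrg4* (−1.29, 0.0177) fell against naïve mice, but not with scaling by the library total (adjusted p = 0.213, 0.142 and 0.156), and *Nrg1* fell by 2.23 against IM24h (SE 0.38, edgeR adjusted p = 9.64e-04). *Erbb4*, the fourth receptor of the family, had at most 11 counts in any library, was not listed in the *ME* table and was under the filter in *RiboTag*.

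Genes of shedding were called in both directions in the tissue. In the *ME* at IM3h, 2 of 6 tested rose and 1 fell: the metalloprotease *Adam9* (1.72, edgeR adjusted p = 0.00896) and *Rhbdf2*, a partner of ADAM17 (2.67, 0.00355), rose, and *Adam19* fell by 0.82 (0.00313). *Adam8* was set aside, with a log2 difference of 4.55 (SE 0.61). *Adam17*, a sheddase of several of these ligands, was, like *Adam19* in the *ME*, named after its value was seen. Its log2 fold change was 0.53 (adjusted p = 0.106) at IM3h, and it rose by 1.17 at IM72h (SE 0.15, edgeR adjusted p = 7.85e-05). *Adam8* is also known as a leukocyte gene, and the neutrophil markers above were higher in the same libraries. The part of these cells in the difference of *Adam8* was not tested. In *RiboTag* at IM3h, 0 of 7 rose and *Adam19* fell by 1.02 (adjusted p = 0.0291, and 0.0929 to 1 with scaling by 3 reference genes or 1 fit over all groups).

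**Figure D5:**
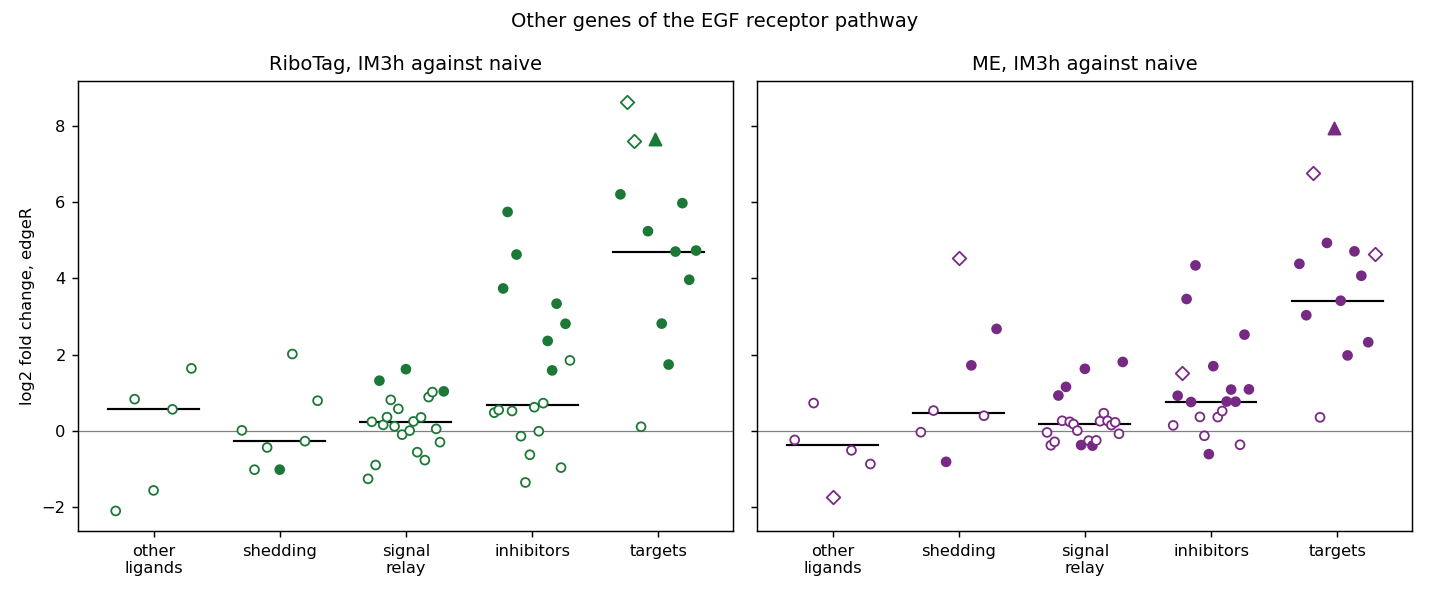
log2 fold change at IM3h against naïve mice of the other ligands and of genes of shedding, signal relay, inhibitors and targets, in *RiboTag* (left) and *ME* RNA (right). Each point is 1 gene, filled points have an edgeR adjusted p under 0.05, open diamonds passed the filter through 1 group alone, triangles are lower bounds of *Fosl1* and black lines are medians of the other genes. In both fractions 8 of 9 targets rose, with medians of 4.70 and 3.41.

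Among genes of signal relay, 4 of 21 rose and 2 fell in the *ME* at IM3h, and 3 of 21 rose and 0 fell in *RiboTag*, with medians of 0.17 and 0.24. *Stat3* (1.81 in the *ME*, edgeR adjusted p = 4.48e-06, and 1.03 in *RiboTag*, 0.0217) and *Nras* (1.63, 9.62e-06, and 1.62, 0.00200) rose in both, as did the adaptor gene *Grb2* (0.93, 6.36e-05, and 1.31, 0.00993). In *RiboTag* these 3 calls were lost with scaling by 3 reference genes (adjusted p = 0.402, 0.138 and 0.273) and with 1 fit over all groups.

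Feedback inhibitors of the pathway limit its signal in time. In the *ME* at IM3h 10 of 17 rose and 1 fell, with a median of 0.76, and in *RiboTag* 7 of 18 rose and 0 fell, with a median of 0.67. *Errfi1*, whose product binds and blocks the EGF receptor kinase, rose from 5.61 to 8.90 CPM to 115 to 171 CPM in the *ME* (log2 4.34, SE 0.20, edgeR adjusted p = 4.19e-07) and from 1.65 to 5.14 CPM to 44.8 to 100.2 CPM in *RiboTag* (4.63, SE 0.45, 8.36e-05). The ERK phosphatase gene *Dusp5* rose by 3.46 (2.15e-06) and 5.75 (4.36e-05), *Spry2* by 2.52 (3.43e-06) in the *ME* and *Dusp4* by 3.74 (0.00230) in *RiboTag*. With 1 fit over all groups the *RiboTag* calls of *Errfi1* (adjusted p = 0.238) and *Dusp4* (0.975) were lost. *Dusp5* was the only gene of these lists that passed the test in *RiboTag* at IM24h (log2 4.90, SE 0.70, edgeR adjusted p = 0.0206). Its adjusted p was 0.127 with scaling by the library total, 0.186 with scaling by 3 reference genes and 0.0960 to 0.145 without IM24h library 2 or 4 or naïve library 2 or 3.

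Of the targets, early genes that growth factor signals and many other stimuli induce, 8 of 9 tested rose and 0 fell in each fraction at IM3h. *Fosl1* and *Egr3* in both fractions, *Plaur* in the *ME* and *Egr2* in *RiboTag* passed the filter through IM3h libraries alone and were set aside. With 1 fit over all groups, 1 of the 8 calls in *RiboTag* was kept, that of *Egr1* (edgeR adjusted p = 1.91e-04). The AP-1 gene *Fosl1* was at 0 in all naïve libraries and at 102 to 116 CPM in the *ME* and 15.8 to 123 CPM in *RiboTag* at IM3h, at least 246-fold and 201.1-fold higher than the floor of 3 counts per library. *Egr3* was at 20.7 to 31.2 CPM against 0.120 to 0.360 CPM in the *ME* and at 35.9 to 84.7 CPM against 0 to 0.713 CPM in *RiboTag*, and *Egr2* at 4.6 to 30.6 CPM against at most 0.119 CPM in *RiboTag*. *Fos* rose by 4.93 (SE 0.41, edgeR adjusted p = 1.50e-05) in the *ME*. *Etv5*, an ETS factor downstream of ERK and the target that was not called, did not pass the test, with 0.35 in the *ME* and 0.10 in *RiboTag*. The study's gliosis list joined published gliosis genes, checked in the *RiboTag* data, with genes far higher in *RiboTag* at IM3h. Of these lists it holds *Stat3*, *Errfi1*, *Spred2*, *Dusp4*, *Dusp5*, *Fos*, *Fosl1*, *Egr1*, *Egr2*, *Junb*, *Ier3* and *Phlda1*. The *RiboTag* counts are therefore not independent evidence of their direction. The lists here were written with earlier results of these data known, so the *ME* counts are not independent evidence either.

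At later time points the lists were counted in the tissue as well. At IM24h, where 15.6% of all genes rose and 13.4% fell, 7 of 9 targets tested rose and 0 fell in the *ME*, among them *Junb* (3.76, edgeR adjusted p = 3.11e-05) and *Myc* (2.69, 0.00250), and *Plaur* was set aside at 4.89. *Errfi1* rose by 1.16 (0.0180, and 0.232 with scaling by 3 reference genes) and *Dusp5* by 2.20 (0.00113), among 6 of 17 inhibitors that rose and 2 that fell. In shedding 2 of 6 rose, with *Adam8* at 6.09 and *Adam12* at 3.88 set aside, and in signal relay 3 of 21 rose and 4 fell. At IM72h, where 29.3% rose and 28.3% fell, 5 of 9 targets rose, while 7 of 17 inhibitors fell and 3 rose, with *Lrig1* (−1.72, 1.72e-05) and *Spry4* (−1.67, 4.26e-04) lower and *Dusp6* (1.45, 1.05e-04) higher. In signal relay 11 of 21 fell and 4 rose, and in shedding 3 of 6 rose and 1 fell, with *Adam12* at 4.65 and *Adam8* at 4.47 set aside. From IM24h to IM72h, where 18.6% of all genes rose and 19.9% fell, 9 of 17 inhibitors and 5 of 12 targets fell, in the same direction as *Ereg*, *Btc* and *Hbegf*, while 3 inhibitors and 1 target rose. In *RiboTag* at IM72h 1 of 5 shedding genes, 2 of 21 of signal relay, 4 of 17 inhibitors and 1 of 7 targets fell and 0 rose, and 0 of the calls were left once genes that passed the filter through 1 group alone were set aside. Over all genes, 15.1% fell with such genes and 0.591% without them.

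Patterns over all libraries of a fraction were alike for some members and not for others. In the *ME*, Pearson's r of log2 CPM over 14 libraries was 0.905 for *Areg* and *Ereg*, 0.890 for *Areg* and *Hbegf*, 0.865 for *Ereg* and *Hbegf* and 0.815 for *Hbegf* and *Egfr*. Pairs with *Erbb2*, *Erbb3* or *Tgfa* lay between −0.502, for *Ereg* and *Erbb2*, and 0.419, for *Tgfa* and *Erbb2*. In *RiboTag*, over 15 libraries, pairs ranged from −0.596 for *Tgfa* and *Erbb2* to 0.806 for *Areg* and *Hbegf*, with 0.0240 for *Ereg* and *Btc*. These values describe libraries that share groups, depth and, in *RiboTag*, many zeros. Over the 17923 genes of the *ME*, those most like *Hbegf* were *Csrnp1* (0.987), *Maff* (0.981) and *Gm13889* (0.974), those most like *Areg* were *Thbs1* (0.967), *Rrs1* (0.966) and *Prpf38b* (0.956), and *Eif2s2* (0.989) was most like *Ereg*, *Thap2* (0.964) most like *Btc* and *Jdp2* (0.943) most like *Egfr*. No gene came closer to *Erbb3* in the *ME* than *Galnt7*, at 0.797. Over the 18254 genes of *RiboTag*, *Gdnf* (0.949), *Ifrd1* (0.919) and *Hnrnph1* (0.908) were most like *Hbegf*, *Zfp593* (0.960) and *Ptx3* (0.959) most like *Areg*, *Tax1bp1* (0.942) and *Rbm15* (0.940) most like *Btc* and *Fkbp8* (0.975) and *Snx1* (0.970) most like *Erbb3*.

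The transcript tables split *Hbegf*, *Btc* and *Tgfa* between isoforms. At IM3h in *RiboTag*, 51.6% to 93.2% of *Hbegf* counts were given to *Hbegf-201*, the protein-coding transcript, and 5.20% to 45.4% to *Hbegf-203*, annotated as a retained intron. In naïve *RiboTag* libraries *Hbegf-201* had 88.6% to 99.9%. For *Btc*, 58.2% to 86.4% of the counts at IM3h in *RiboTag* and 55.1% to 66% in the *ME* were given to *Btc-202*, annotated as a target of nonsense-mediated decay. The protein-coding *Btc-201* was given 11.3% to 41.0% and 34.0% to 44.9%. In naïve *RiboTag* libraries, with 17 to 32 counts each, *Btc-201* was given 0% and *Btc-202* 68.75% to 100%. In naïve *ME* libraries *Btc-201* had 17.0% to 37.6%. For *Tgfa*, which had few counts, the protein-coding *Tgfa-201* was given 39.0% of the counts over all *RiboTag* libraries and 80.4% in the *ME*, and *Tgfa-203*, annotated as a processed transcript, the rest. Tags were assigned to transcripts by estimation, so these shares are uncertain, and the sums over a gene used above do not depend on them.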

How the data were processed

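Small bowel *ME* RNA was sequenced as glial *RiboTag* pulldown (15 libraries in the tables) and total RNA (14 libraries). Per the labels, 3′ end libraries were trimmed with cutadapt, aligned with STAR and quantified in Partek on mm10. The authors deposited estimated counts, per transcript for *RiboTag* and both per gene and per transcript for *ME*, limited to entries with a total of at least 10. The main fits within *ME* and its levels used the per-gene counts. The fit and the ratios between the fractions and the isoform shares used the per-transcript counts. Tables of the authors' own comparisons (fold changes and p-values) were not used. Transcript counts were summed by gene symbol and rounded. Library numbers are the order of names within a group, and groups were read from the tables' group entry. Which labelled sample of a group a library is could not be told from its name and was not used.

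Each pair of groups was fitted in edgeR 4.0.16 (R 4.3.3) after its filter on low counts, with TMM scaling and the quasi-likelihood test, two-sided, with Benjamini-Hochberg adjustment over all genes tested. Levels are TMM-scaled CPM over all libraries of a fraction, and the fractions were normalised separately. Alternatives were other scalings, no filter, DESeq2 1.42.0, 1 fit over all groups and leaving out each library. Methods were tested on simulated data. No pair of replicate libraries agreed within sampling noise (smallest chi-square per degree of freedom 5.43). Totals of 3010306 to 12866062 counts set the precision, and floors of 3 counts cover counting error only.

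The members and lists were chosen with earlier results of these data known. Named were every member, up to 3 called genes per pathway list with the largest absolute log2 fold change in a comparison, all other ligands and receptors, the 3 genes most like a member by Pearson's r, and markers that moved with a result. Genes outside this rule are said to be named after their values were seen. Some genes that this rule names are not reported here.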

Additional observations from a re-analysis of the deposited data

Results flagged for a closer look

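Each member in each group of 4 libraries made 39 sets, which share libraries, and in 6 of them 1 library lay far from the other 3 (Dixon's test). Chance gives about 1 in 20 for values that vary smoothly, but not for the 3 sets in which the other libraries were all at 0, where any count stands apart. In *RiboTag* at IM24h, library 4 had 18.7 CPM of *Areg* against 0 to 1.38 CPM, and 9.90 CPM of *Ereg* against 0 in the others. In *RiboTag* at IM72h, library 2 had 18.7 CPM of *Ereg* and 22.6 CPM of *Erbb2*, both at 0 in the other 3. In *RiboTag* at IM3h, library 1 had 5.49 CPM of *Tgfa* against 0 to 0.775 CPM. In the *ME* at IM24h, library 2 had 16.5 CPM of *Erbb3* against 7.70 to 8.47 CPM. Of these, 5 are in *RiboTag*, at levels of few counts.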

How the results depend on the processing

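No paired analysis was possible because the names of libraries show no number that the labels use. In the *ME* at IM3h *Ereg*, *Hbegf* and *Egfr* kept their calls under every alternative fitted, and *Btc* lost its call under 4. In *RiboTag* at IM3h the 5 over 2-fold were 4 to 5. Counts leave out members that passed the filter through 1 group alone. In the *ME* at IM24h the 2 called became 1 with scaling by *Actb*, *Hsp90ab1* and *Rplp1*, 3 with the library total or 1 fit, and 2 to 3 without 1 library. At IM72h the 2 called became 1 with an unadjusted p under 0.05 and a 2-fold change. The genes behind that count were not the same throughout. *Btc* lost its call with the library total, and *Egfr* changed sign with the reference genes. From IM24h to IM72h the 3 called were 2 to 3 without 1 library. In *RiboTag* at IM24h the 1 called became 2 with the unadjusted rule, 0 with the library total, 0 with the 3 reference genes, 0 with 1 fit, and 0 to 1 without 1 library. Between the naïve fractions the 2 called became 4 with the unadjusted rule.

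Changes of sign were as follows, on the log2 scale. In the *ME* at IM3h *Erbb2* was −0.20 (library total), −0.35 (reference genes) and −0.050 to 0.11 without 1 library, and *Erbb3* −0.036 (reference genes). At IM24h the library total gave *Btc* 0.57, *Erbb2* 0.36 and *Erbb3* 0.61, and leaving out 1 library gave *Erbb3* −0.35 to 0.089 and *Btc* −0.30 to 0.20. At IM72h *Erbb3* was 0.40 (library total), and the reference genes gave *Egfr* −0.13, *Erbb2* −0.31, *Hbegf* −0.17 and *Tgfa* −0.20. From IM24h to IM72h *Egfr* was 0.056 (no filter), 0.028 (1 fit) and −0.095 to 0.10 without 1 library, and *Erbb3* −0.32 to 0.15. In *RiboTag* at IM3h *Tgfa* was −0.66 to 0.44 and *Erbb2* −0.050 to 1.2 without 1 library. At IM24h the reference genes gave *Egfr* −0.44, *Ereg* −0.17 and *Hbegf* −0.42, and leaving out libraries 2 and 3, chosen after seeing the data, gave *Erbb2* 0.14. At IM72h *Egfr* was −1.08 and *Hbegf* −1.82 (library total), −0.77 and −1.51 (reference genes), and *Hbegf* −0.67 to 0.58 without 1 library. The cause was not tested.

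Scaling moved the median of all genes. By the library total and by the reference genes the *ME* had −0.26 and −0.41 (IM3h), 0.66 and −0.35 (IM24h) and 0.62 and −0.58 (IM72h), and *RiboTag* had −0.24 and −0.45, then −0.96 and −1.51, then −2.13 and −2.07. The share of calls that were higher went from 59% to 33.9% and 22.7% in the *ME* at IM3h, from 53.9% to 89.7% and 28.9% at IM24h, from 50.9% to 81.2% and 20.1% at IM72h, from 66.6% to 51.2% and 44.2% in *RiboTag* at IM3h, from 48.2% to 45.7% and 30.3% between IM72h and IM24h, from 6.48% to 1.39% and 1.57% in *RiboTag* at IM72h, and from 51.4% to 91.9% and 64.4% between the naïve fractions. In *RiboTag* at IM24h the 56 genes called higher and 20 lower became 1 and 0 under either scaling.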
